A study of Mus musculus with 4 samples.

Results

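The microRNAs (miRNAs) described here are miR-10a, miR-10b, miR-196a and miR-196b, whose genes lie inside the Hox clusters. They were chosen by the names of the TaqMan assays: 5 assays of the 750 miRNA assays on the chips carry one of these 4 names, because miR-10b was read on both panels, A and B. The assay names are mmu-miR-10a, mmu-miR-10b (read on both panels), hsa-miR-196a and mmu-miR-196b, where mmu stands for mouse and hsa for human. The tissue was ankle synovium, the lining of the tibiotalar joint, and the hosts were C57BL/6J mice. Their arthritis is the kind in which serum from arthritic K/BxN mice inflames the joints of a recipient. The arthritic group was 2 pools taken at day 10, the peak of inflammation, each from 10 mice, and the non-arthritic group was 2 pools at day 0, each from 3 mice. All pools carry the same strain and model labels, so that the groups differ in day, in inflammation and in the number of mice pooled, and each pool was read in 2 technical wells per assay.

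Hox genes encode transcription factors that give cells their position along the body axis and along the limbs. The miR-10 and miR-196 genes sit between them and repress, among other messenger RNAs, those of Hox genes. miR-196 is known for directing the cleavage of Hoxb8 messenger RNA and is found in the mouse embryo in the hindlimb, the limb this synovium comes from. In human endothelial cells miR-10a is known to restrain NF-kappaB signalling.

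The mature sequences are shown because the 2 families differ in seed, the stretch that pairs with target messenger RNAs, while the members of a family differ in a position outside it. All 4 names matched the RefSeq table of the mouse build GRCm38.p6. The sequences are written 5′ to 3′, with the seed, bases 2 to 8, in capitals.
miR-10a-5p: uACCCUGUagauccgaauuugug
miR-10b-5p: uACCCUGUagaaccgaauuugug
miR-196a-5p: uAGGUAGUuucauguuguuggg
miR-196b-5p: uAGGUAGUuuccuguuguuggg
Counted from 1 at the 5′ end, miR-10b-5p differs from miR-10a-5p by U12A only, and miR-196b-5p from miR-196a-5p by A12C only. Both members of each family therefore have the same seed. How far each assay also reads its relative was not tested.

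The hairpin of miR-10a lies at chr11:96317165-96317274 on the plus strand, between Hoxb5 and Hoxb4 and inside the annotated span of Hoxb3. That of miR-10b lies at chr2:74726070-74726137 on the plus strand, inside the annotated spans of Hoxd3 and Hoxd4. miR-196a-5p comes from a pair of genes with the same mature sequence. Mir196a-1 lies at chr11:96265164-96265265 on the plus strand between Hoxb13 and Hoxb9, and Mir196a-2 at chr15:102973350-102973434 on the plus strand between Hoxc10 and Hoxc9. The hairpin of miR-196b lies at chr6:52230081-52230165 on the minus strand, between Hoxa9 and Hoxa10. A value of miR-196a thus sums what 2 Hox clusters make, and each of the other members has 1 gene.

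Each well gives a Ct, the PCR cycle at which its signal passes a set brightness. A Ct lower by 1 means about 2 times the RNA where every cycle doubles the product. A Ct was recorded for 271 and 223 of the 750 miRNA assays in arthritic pools 1 and 2, and for 294 and 287 in non-arthritic pools 1 and 2. Arthritic pool 2 stands apart. Over the assays with a Ct in each of the 4 pools, the panel A median was 12.5 and 15.9 cycles in arthritic pools 1 and 2, against 12.6 and 12.8 cycles in the non-arthritic pools. For panel B it was 16.5 and 18.4 in the arthritic pools, against 15.5 and 15.6 in the non-arthritic pools. Levels below are this panel median minus the Ct of the assay in the same pool, in log2 units, and groups were compared by limma over the 209 assays detected in all 4 pools, 134 on panel A and 75 on panel B. All 5 Hox cluster assays were among them, with a Ct in 39 of their 40 wells. The synovial label goes with a Ct in every well for the fibroblast and mesenchymal miRNAs miR-199a-3p, miR-199b and miR-214, and miR-199a-5p gave a Ct in arthritic pool 1 only. Skeletal muscle miRNAs were also present, with miR-1 and miR-133b detected in both non-arthritic pools.

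**Figure D1:**
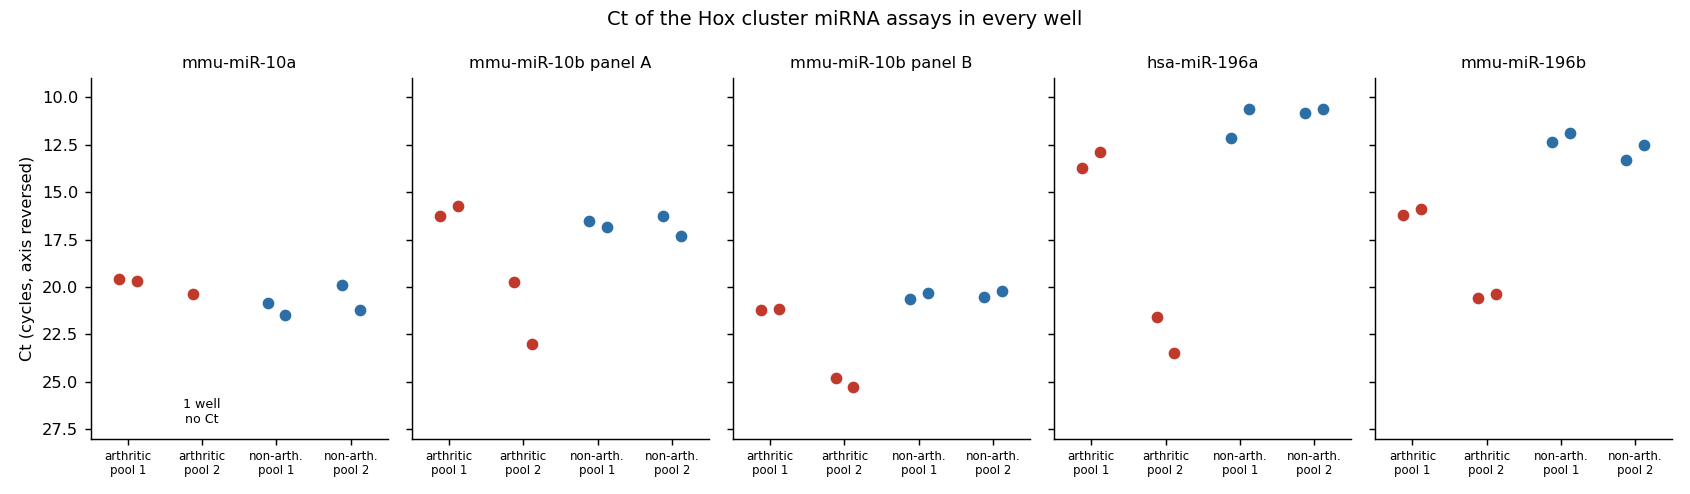
Ct in every well (points; the vertical axis is in cycles and reversed, so that more RNA is higher) of the 5 Hox cluster assays in the 2 arthritic pools (red, left) and the 2 non-arthritic pools (blue, right). For miR-196a and miR-196b all arthritic wells lie below all non-arthritic wells, and for miR-10a 1 well of arthritic pool 2 gave no Ct.

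miR-196b fell in arthritic synovium, and it was the only 1 of the 5 assays that passed the test. miR-196a was also lower in both arthritic pools but by very unequal amounts, miR-10a was higher in both, and neither passed. Both miR-10b assays had overlapping groups. Of all 209 assays 45, or 21.5%, passed limma's test at 0.05 after Benjamini-Hochberg adjustment, 9.57% as higher and 12% as lower. The share of 1 in 5 is near that background. The median log2 difference was -0.82 over the 5 assays and 0.19 over all 209. In bulk tissue, fewer cells that hold a miRNA and less of it per cell cannot be told apart.

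miR-196b, encoded between Hoxa9 and Hoxa10 and known from blood progenitors and leukaemias as well as from posterior tissues, was read on chip A2. Its Ct was 16.2 and 15.9 in the wells of arthritic pool 1 and 20.6 and 20.4 in those of arthritic pool 2, against 12.4 and 11.9 in non-arthritic pool 1 and 13.3 and 12.5 in non-arthritic pool 2. Every arthritic well needed more cycles than every non-arthritic well, and the duplicate wells of a pool lay within 0.802 cycles. The highest Ct of miR-196b was that of arthritic pool 2, whose panel median was high too.

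As a level, miR-196b was at -3.51 and -4.59 in the arthritic pools, against 0.53 and -0.081 in both non-arthritic pools. The arthritic pools thus lay close together once each was set against its own panel, and the groups did not overlap. It averaged -4.05 ± 0.76 in the arthritic and 0.23 ± 0.43 in the non-arthritic pools (SD, n = 2 pools each), a log2 difference of -4.27 ± 0.80 (SE, 95% interval -6.23 to -2.32, limma adjusted p = 0.0200). That is a 19.3-fold lower level. The difference ranked 18th from the lowest of the 209. In the order of levels on panel A miR-196b stood at places 94 and 105 of 134 assays in the arthritic pools, against places 60 and 68 in the non-arthritic pools.

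The call of miR-196b rests on the spread that limma shares across assays. An exact permutation test with 2 pools per group cannot go below p = 0.333. Without arthritic pool 2 the log2 difference was -3.20 (limma adjusted p = 0.0302, with 39.6% of 245 assays passing). Without arthritic pool 1 it was -4.76. In those fits a lone pool is assumed to vary like the other group. Without non-arthritic pool 1 or 2 it was -3.97 and -4.53, and it did not pass (limma adjusted p = 0.249 and 0.365), as no assay did (42 and 25 had an unadjusted p under 0.05).

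miR-196a, known in the mouse for promoting brown fat cells within white fat, was read on chip B4 of panel B. Its Ct was 13.7 and 12.9 in arthritic pool 1 and 21.6 and 23.5 in arthritic pool 2, against 12.2 and 10.6 in non-arthritic pool 1 and 10.8 and 10.6 in non-arthritic pool 2. All arthritic wells lay above all non-arthritic wells, arthritic pool 1 by little and arthritic pool 2 by far. The widest gap between duplicate wells of this assay was 1.91 cycles, in arthritic pool 2.

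The level of miR-196a was 3.20 and -4.11 in the arthritic pools, against 4.17 and 4.93 in the non-arthritic pools. Arthritic pool 1 therefore sat just below the non-arthritic range and arthritic pool 2 carried most of the difference. It averaged -0.46 ± 5.17 in the arthritic and 4.55 ± 0.54 in the non-arthritic pools (SD, n = 2 pools each), with a log2 difference of -5.005 ± 2.24 (SE, 95% interval -10.5 to 0.46, limma adjusted p = 0.132). It ranked 11th from the lowest of the 209 differences without passing. Without arthritic pool 2 the log2 difference was -1.57, and without arthritic pool 1 it was -8.66, each resting on a lone arthritic pool.

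Chip B4 itself ran late in arthritic pool 2. The median Ct of its 24 tested assays was 16.7 and 21.1 in the arthritic pools, against 14.9 and 15.3 in the non-arthritic pools, a wider gap than that of panel B as a whole. Set against the median of its own chip, miR-196a was at 3.35 and -1.46 in the arthritic pools, against 3.56 and 4.59 in the non-arthritic pools, and the log2 difference was -3.12 (limma adjusted p = 0.243). For miR-196b, on chip A2, the log2 difference against its own chip was -4.31 (limma adjusted p = 0.0747). The size stayed while the call was lost. On this chip scale miR-196b stood at -5.39 in arthritic pool 1 and -8.13 in arthritic pool 2. Non-arthritic pool 1 was at -1.76 and non-arthritic pool 2 at -3.14. The groups still did not overlap, but the arthritic pools lay close together on the panel scale only.

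miR-196a and miR-196b, with 1 seed, were compared with each other inside each pool. The level of miR-196a minus that of miR-196b was 6.71 and 0.48 in the arthritic pools, against 3.63 and 5.01 in both non-arthritic pools. The arthritic pools lay on either side of the non-arthritic pools, so that no direction can be read, and the mean difference of -0.73 had an exact two-sided permutation p of 1 (adjusted p of 1 over the 3 pairs of members compared). These differences carry the unknown efficiencies of both assays, and their change between pools can be read, not their size.

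A rat-named assay of miR-196c, on chip A2, was looked at after its values were seen. Its level was 2.40 and 2.21 in the arthritic pools, against 4.65 and 4.56 in both non-arthritic pools. On this panel scale the pools of each group were close and the groups did not overlap. Against its own chip the arthritic pools lay further apart. Its mean Ct was 10.1 and 13.7 in arthritic pools 1 and 2, where the median of chip A2 was 10.7 and 12.4. The log2 difference was -2.30 ± 0.72 (SE, limma adjusted p = 0.0686), which did not pass, and it was below 0 in all 19 alternative settings. All 3 assays with miR-196 in their name (star strand aside) thus had both arthritic pools below both non-arthritic pools, as had 32.1% of the 209 assays.

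**Figure D2:**
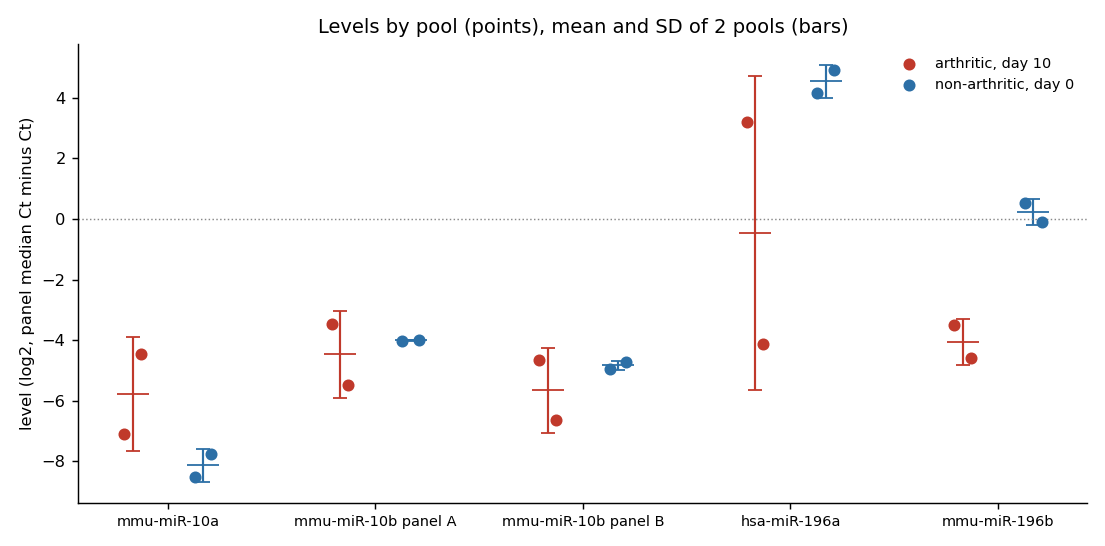
Level of each assay (vertical axis: log2 units, panel median Ct minus assay Ct) in the 2 arthritic pools (red, left of each pair) and the 2 non-arthritic pools (blue, right); points are pools, bars the mean and SD of 2 pools. The arthritic pools of miR-196a lie at 3.20 and -4.11, while those of miR-196b lie at -3.51 and -4.59.

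miR-10a was higher in both arthritic pools, at a low level in all pools, and did not pass. It was read on chip A3, where its Ct was 19.6 and 19.7 in arthritic pool 1 and 20.4 in 1 well of arthritic pool 2, whose other well gave none. In the non-arthritic pools it was 20.8 and 21.5 in pool 1 and 19.9 and 21.2 in pool 2. Single wells overlapped between the groups, while the pool means did not, at 19.6 and 20.4 cycles in the arthritic pools, against 21.2 and 20.6 cycles in the non-arthritic pools. The raw Ct gave a log2 difference of 0.86, and the panel medians widened it.

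The level of miR-10a was -7.10 and -4.45 in the arthritic pools, against -8.52 and -7.74 in both non-arthritic pools. The higher arthritic value was that of pool 2, the one that rests on 1 well. It averaged -5.78 ± 1.87 in the arthritic and -8.13 ± 0.55 in the non-arthritic pools (SD, n = 2 pools each). The log2 difference was 2.35 ± 1.07 (SE, 95% interval -0.26 to 4.96, limma adjusted p = 0.136), a 5.10-fold higher level, and it ranked 41st from the highest of the 209. Leaving out arthritic pool 2 gave 1.56, and leaving out arthritic pool 1 gave 3.72, where the arthritic group rests on 1 well. With U6, with the 2 snoRNAs or with all 3 control RNAs as the reference it was below 0, at -0.51, -0.34 and -0.39.

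miR-10b, the closest relative of miR-10a and known in human breast cancer cells for repressing HOXD10, was read by 2 assays with different assay IDs. On chip A3 of panel A its Ct was 16.2 and 15.7 in arthritic pool 1 and 19.7 and 22.9998 in arthritic pool 2, against 16.5 and 16.8 in non-arthritic pool 1 and 16.3 and 17.3 in non-arthritic pool 2. The duplicate wells of arthritic pool 2 differed by 3.25 cycles, the most of any member and pool, and the second listed well is that in which miR-10a gave no Ct. Those wells recorded 36 and 24 assays of chip A3 in arthritic pool 2, against 40 and 42 in non-arthritic pool 1 and 39 and 41 in non-arthritic pool 2.

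On chip B4 of panel B the Ct of miR-10b was 21.2 and 21.1 in arthritic pool 1 and 24.8 and 25.3 in arthritic pool 2, against 20.6 and 20.3 in non-arthritic pool 1 and 20.5 and 20.2 in non-arthritic pool 2. Here the duplicates lay within 0.459 cycles in every pool. This assay had a later Ct than that of panel A in every pool, on a chip whose median was later too. The notes deposited with the Ct place a single copy near the highest Ct recorded, and the values of arthritic pool 2 lie not far below it.

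As levels, the panel A assay of miR-10b was at -3.45 and -5.47 in the arthritic pools, against -4.02 and -3.99 in both non-arthritic pools. The panel B assay was at -4.66 and -6.64 in the arthritic pools, against -4.95 and -4.72 in the non-arthritic pools. In both assays arthritic pool 1 lay above and arthritic pool 2 below both non-arthritic pools. The log2 differences were -0.46 ± 0.92 on panel A (SE, 95% interval -2.71 to 1.79, limma adjusted p = 0.738) and -0.82 ± 0.92 on panel B (SE, 95% interval -3.06 to 1.42, limma adjusted p = 0.515). These intervals leave room for a change of some log2 units either way. Against the median of the own chip both values were above 0, at 0.40 and 1.06.

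The 2 assays of miR-10b kept a similar distance when set against the panel medians. The panel A level minus the panel B level was 1.204 and 1.17 in the arthritic pools, against 0.92 and 0.73 in the non-arthritic pools, while the levels themselves spanned about 2 log2 units. The mean difference of 0.36 between the groups had an exact two-sided permutation p of 0.333, the smallest that 2 against 2 pools allow (adjusted p of 0.5 over the 3 pairs). It was 0.90 without the second A3 well of arthritic pool 2, 1.13 without arthritic pool 2 and 0.13 without non-arthritic pool 2. Against the medians of their own chips the assays did not run alike: the panel A assay was at -3.94 and -4.86 in arthritic pools 1 and 2, and the panel B assay at -4.50 and -3.99.

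miR-10a and miR-10b share chip A3, so that their Ct can be set against each other well row by well row with no reference. The Ct of miR-10a minus that of miR-10b was 3.32 and 3.97 in arthritic pool 1 and 0.608 in the 1 usable row of arthritic pool 2, against 4.32 and 4.66 in non-arthritic pool 1 and 3.62 and 3.89 in non-arthritic pool 2. The rows of arthritic pool 1 overlapped the non-arthritic rows, and arthritic pool 2 lay apart from all. Per pool, the level of miR-10a minus that of miR-10b was -3.65 and 1.02 in the arthritic pools, against -4.49 and -3.76 in both non-arthritic pools. The mean difference of 2.81 had an exact two-sided permutation p of 0.333 (adjusted p of 0.5 over the 3 pairs), and it was 0.48 without arthritic pool 2. The value of 1.02 sets 1 well of miR-10a against the mean of 2 wells of miR-10b, and in the shared well miR-10a had the later Ct. Without the other well the mean difference was 2.00.

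**Figure D3:**
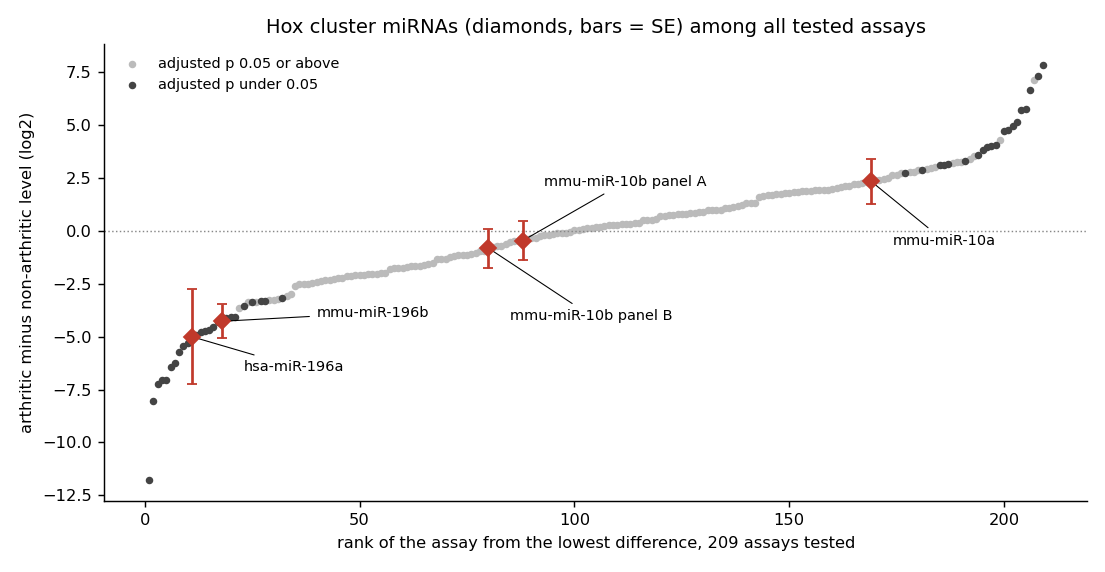
Arthritic minus non-arthritic level (vertical axis, log2) of all 209 tested assays, ordered from the lowest (horizontal axis, rank); dark points passed an adjusted p of 0.05, and red diamonds with SE bars are the 5 Hox cluster assays. miR-196a and miR-196b lie at ranks 11 and 18, the miR-10b assays at ranks 80 and 88, and miR-10a at rank 169.

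The groups did not overlap in 3 of the 5 assays (1 higher, 2 lower), against 71.3% of all 209. Over all tested assays the median gap between pools was 1.38 log2 units in the arthritic and 0.52 in the non-arthritic group. Without arthritic pool 1, 4 of the 5 assays passed (miR-10a higher, the panel B assay of miR-10b, miR-196a and miR-196b lower), in a fit where 57.1% of 212 assays did.

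Except with the median per chip, the scaling moved the values of a panel together, and those of the panels by unlike amounts. The median log2 difference of the 209 assays was 0.19 with the panel median, -1.43 with raw Ct, -1.91 with the 2 snoRNAs, -2.17 with the 3 control RNAs and -2.51 with U6. Each of these references shifts all assays of a panel in a pool alike. By arithmetic, the differences relative to the median difference of their own panel are then the same with each. They are 2.06 for miR-10a, -0.75 and -0.48 for miR-10b on panels A and B, -4.67 for miR-196a and -4.56 for miR-196b. With the median per chip, which is not fixed in this way, they were 2.96, 0.15, 0.68, -3.50 and -4.56 in the same order. Taken as they are, the differences of miR-10a change direction with the reference, and those of miR-196a and miR-196b were below 0 with all 7. The control RNAs did not move together: on panel A the mean Ct of the arthritic minus that of the non-arthritic pools was -1.36 for U6, -3.12 for snoRNA135 and 0.74 for snoRNA202. On panel B it was -0.0999, -0.152 and 2.64 for the same RNAs. Only snoRNA202 had a later mean Ct in the arthritic pools on both panels, as the panel medians had, and which reference is the right one was not tested.

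**Figure D4:**
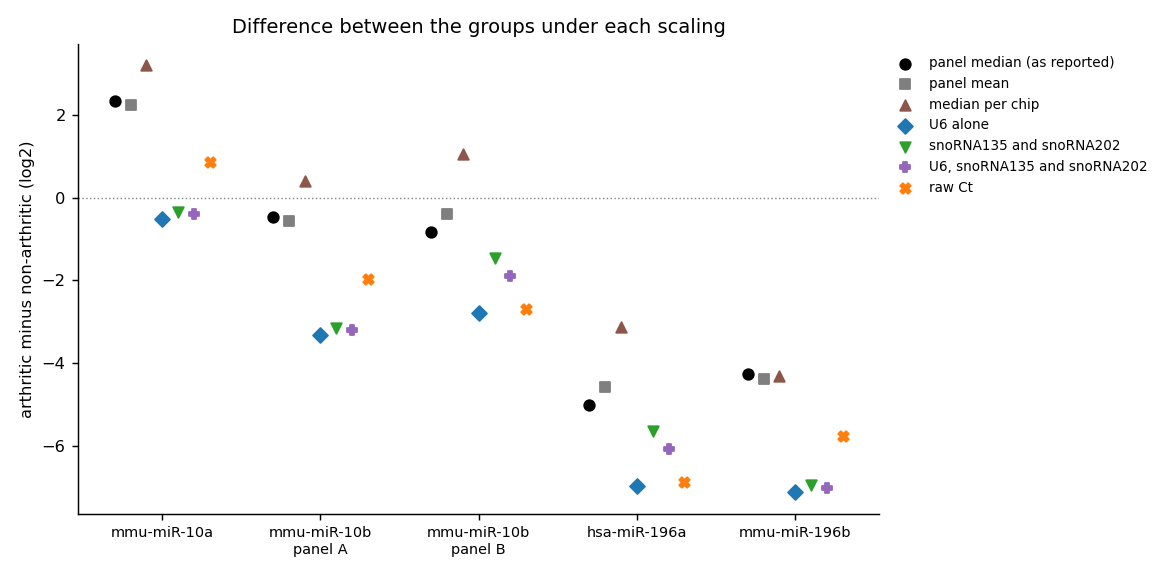
Arthritic minus non-arthritic difference (vertical axis, log2) of the 5 assays under 7 scalings, 1 symbol per scaling. miR-196a and miR-196b lie below 0 under each, from -6.98 to -3.12 and from -7.13 to -4.27, while miR-10a and both miR-10b assays have values on either side of 0.

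In the authors' deposited table of group averages, the log2 difference was 2.06 for miR-10a, 0.081 for its 1 entry of miR-10b, -5.20 for miR-196a and -4.56 for miR-196b. For miR-10a and miR-196b these are the values found above relative to the median difference of panel A, not the level differences of 2.35 and -4.27. This does not hold for miR-196c, also on panel A. Its deposited value of -2.50 lies between its level difference of -2.30 and its value relative to the median difference of that panel. The deposited value of miR-196a is further below 0 than its level difference of -5.005 and its value of -4.67 relative to panel B. It is nearer 0 than the differences with the control RNAs. The deposited value of miR-10b is near 0. The sources used here state neither the normalization of the authors' deposited table nor which miR-10b assay it lists.

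Other products of the Hox clusters gave no Ct in any well: miR-615-3p and miR-615-5p, encoded in the Hoxc cluster, and the star strands of miR-10a (human-named), miR-10b and miR-196a, 5 assays in all. Which of them were absent and which failed was not tested. By sequence the nearest relatives outside the Hox clusters are miR-99 and miR-100, whose genes lie beside let-7 and miR-125 genes. They are shown because their seed is close to, but not the same as, that of miR-10.
miR-99a-5p: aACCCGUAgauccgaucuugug
miR-100-5p: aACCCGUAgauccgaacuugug
With the 3′ ends in register and positions counted on miR-10a-5p, miR-100-5p differs by C3A, U6C and U18C. Of miR-99a, miR-99b and miR-100, 3 of 3 were tested and 0 passed, with log2 differences of 1.71 ± 0.73, 3.21 ± 0.97 and 1.32 ± 0.80 (SE, limma adjusted p = 0.120, 0.0651 and 0.256). All 3 were higher in both arthritic pools, as were 39.2% of the 209 assays. Their median of 1.71 stands beside 2.35 for miR-10a and values below 0 for both assays of miR-10b. These values too lie on the panel median scale.

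Of the fibroblast and mesenchymal list, 3 of 4 assays were tested and 0 passed (median log2 difference 1.68). There miR-214 was at 2.32 and miR-199b at 1.68, both higher in both arthritic pools, and miR-199a-3p at -0.69 with overlapping groups. Of the 3 adipose assays 0 passed (median -2.13). In the adipose list miR-193b, which promotes brown fat in the mouse, had a log2 difference of -2.24 ± 1.25 (SE), with both arthritic pools lower. The groups overlapped for the other adipose assays, miR-365 at -2.13 and miR-378 at 0.34. The difference of the Hox cluster miRNAs from these lists was not tested.

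Markers of other cells were described in the same groups. A summed level is the log2 of the sum of the levels taken out of log2. It follows the highest assay of a list most and carries the unknown efficiencies of the assays. The muscle sum and the fibroblast and mesenchymal sum also join assays of both panels, each set against its own panel median. The summed level of the skeletal muscle miRNAs tested (2 of 4, of which miR-133a fell) was 6.996 and 6.17 in the arthritic pools, against 9.07 and 10.3 in the non-arthritic pools, and miR-1 and miR-133b gave no Ct in any arthritic well. The summed level of the 2 endothelial miRNAs was 6.68 and 7.21 in the arthritic pools, against 9.12 and 9.51 in the non-arthritic pools. That of the myeloid miRNAs tested (2 of 4, of which miR-142-3p rose) was 5.36 and 6.76 in the arthritic pools, against 4.35 and 4.08 in the non-arthritic pools, while miR-511 of the same list gave a Ct in every non-arthritic well (pool means 16.8 and 16.6) and in no arthritic well. The summed level of the fibroblast and mesenchymal miRNAs tested (3 of 4) was 6.66 and 6.23 in the arthritic pools, against 4.83 and 4.02 in the non-arthritic pools. None of them passed, and miR-199a-3p went the other way, at -0.69 with overlapping groups. None of the 2 endothelial, 1 red cell, 2 epithelial and skin, and 2 cartilage miRNAs tested passed limma's test. The endothelial median log2 difference was -2.20 and the red cell miR-451 was at -0.78. The cartilage miRNAs lay on opposite sides, miR-140 at -1.78 and miR-455 at 1.93, both without overlap of the groups. The epithelial miRNAs lay on opposite sides too, miR-203 at 0.87 without overlap and miR-205 at -0.97 with overlap. The red cell miR-486 gave a Ct in every non-arthritic well (pool means 14.8 and 13.6) and in no arthritic well. miR-144 of the red cell list and miR-200a and miR-200b of the epithelial list gave no Ct in any well. The part of these shifts in the lower miR-196 levels and the higher miR-10a level was not tested.

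The assays with the most similar course over the 4 pools were found on the same panel, after each was centred on its own mean, by the root mean square (RMS) difference of levels. Assays chosen in this way are bound to have a difference between the groups like that of the member. For miR-196b they were miR-30e and miR-574-3p (RMS 0.520 and 0.575, against a median of 2.51 over 131 assays), with log2 differences of -4.94 and -4.72. For miR-196a they were the star strand assays, with human names, of miR-29a and miR-99b (RMS 1.30 and 1.64). None of the 73 assays compared on panel B had an RMS below 1.30 from miR-196a, where the median was 3.58. miR-196a also varied more between pools, which raises the RMS, so that its values cannot be set against those of miR-196b. For miR-10a they were miR-190 and miR-409-3p (RMS 0.309 and 0.374), both higher in arthritic pool 2 than in arthritic pool 1 and in the non-arthritic pools. For miR-10b they were miR-451, of red cells, and miR-301a on panel A (RMS 0.319 and 0.343), and the star strands of miR-503 and miR-218-1 on panel B (RMS 0.342 and 0.387).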

How the data were processed

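Ct values were deposited per well without normalization, as a score in PCR cycles, per the file headers. The notes beside them name a BioMark system, and wells without a Ct carry a code. Per the labels' protocols, RNA came from a mirVana kit and 500 ng of it were copied with TaqMan reverse transcription reagents. The sources used here do not state the Ct thresholds. The authors also deposited group averages and differences (log2) and the fold (ratio) between them. 6 columns of the Ct sheets that name no assay were not used.

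Wells of a pool were averaged where they had a Ct under 35, and the 750 miRNA assays were reduced to the 209 detected in all 4 pools. No recorded Ct lay above 26.997. Levels (panel median Ct minus Ct) were fitted without a block by lmFit and eBayes of limma 3.58.1 (R 4.3.3). Two-sided p-values were adjusted over all 209 assays (Benjamini-Hochberg, 0.05). Residual degrees of freedom were 2, and the prior added 4.02 with an SD of 0.874. Pairs of members were compared by exact permutation over pools. The fit was also run on simulated data in which all pools of an assay share the same spread. The arthritic pools of these data lay further apart than the non-arthritic pools, a setting that the simulation does not cover. The series description calls the pools biological replicates, and their number limits the precision. The members, lists and alternatives were chosen with earlier results of these data known. The named miRNAs were all 5 assays, for each the 2 most similar assays of its panel, and the listed relatives and cell markers. Pool numbers were not used to pair the pools (correlation of deviations 0.0738). With 2 pools per group this correlation cannot exclude a batch shared by pools of the same number. The alternatives were other references, Ct limits, filters, treatments of wells, moderation, leaving out each pool, and the pool number as a block. When a pool was left out, the assays detected in all remaining pools were used. Sequences and gene neighbours came from RefSeq tables (GRCm38.p6). Plots used matplotlib 3.10.9 (Python 3.11.15).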

Additional observations from a re-analysis of the deposited data

How the results depend on the processing

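miR-196b and miR-196a were below 0 in all 19 alternatives each, from -7.13 to -3.20 and from -8.66 to -1.57. miR-196b kept its call in 13 and lost it with the panel mean (-4.38), the median per chip (-4.31), raw Ct (-5.77), ordinary linear models (-4.27) and without either non-arthritic pool. miR-196a passed with U6 (-6.98), the 2 snoRNAs (-5.63), the 3 control RNAs (-6.08) and the replicate block (-5.005). With the control references, in that order, 55, 58 and 50 of the 209 assays passed. Of them 54, 54 and 47 were lower. With U6 and with the block limma gave every Hox cluster assay the same SE, 1.80 and 1.14. The wide spread of miR-196a between its arthritic pools thus did not set its SE there, against 2.24 in the main fit. Without arthritic pool 1 its difference was -8.66. No pairing beyond the pool number is given by the labels, and with the block 66 assays passed instead of 45. miR-10a was below 0 with U6 (-0.51), the 2 snoRNAs (-0.34) and the 3 control RNAs (-0.39). The panel A assay of miR-10b was above 0 with the median per chip (0.40), the lower Ct of the wells (0.014) and with the second A3 well of arthritic pool 2 left out (0.083), and the panel B assay with the median per chip (1.06). miR-196a minus miR-196b was 0.11 with the lower Ct of the wells. The cause of these turns was not tested.

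With 1 pool left out the differences ran from 1.56 to 3.72 for miR-10a, from -1.42 to 1.08 and from -1.81 to -0.047 for miR-10b on panels A and B, from -8.66 to -1.57 for miR-196a and from -4.76 to -3.20 for miR-196b. miR-196a minus miR-196b then ran from -3.90 to 1.63. The number of assays that passed limma ran from 0 to 121, and was 25 with the panel mean, 8 with raw Ct, 0 with ordinary linear models (55 at an unadjusted p under 0.05) and 79 at an adjusted p of 0.10. miR-10a was not tested where both wells needed a Ct, nor was the panel B assay of miR-10b with a Ct limit of 24, its Ct being above that in arthritic pool 2.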
